A study of Mus musculus with 9 samples.

Results

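The nuclear-encoded subunits of the oxidative phosphorylation machinery, with the assembly factors that carry the same gene prefixes, were followed in mouse bone marrow-derived dendritic cells (BMDC) exposed to lysophosphatidic acid (LPA). They were chosen by name and level: protein-coding genes whose symbol begins with Ndufa, Ndufb, Ndufc, Ndufs, Ndufv, Sdh, Uqcr, Cox4i, Cox5, Cox6, Cox7, Cox8 or Atp5, and whose mean over the 9 libraries was at least 1 CPM (counts scaled to library size). Of 97 protein-coding genes with these 13 prefixes, 88 reached that level, out of 38887 rows in the table and 14363 rows that could be tested. The 88 comprise 74 subunits (36 of complex I, 4 of complex II, 8 of complex III, 11 of complex IV and 15 of complex V) and 14 other proteins, mostly assembly factors. All 88 were tested.

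Oxidative phosphorylation takes place in the inner mitochondrial membrane. Complex I (NADH dehydrogenase) and complex II (succinate dehydrogenase, also an enzyme of the citric acid cycle) pass electrons to ubiquinone, complex III passes them on to cytochrome c, and complex IV passes them to oxygen. Complexes I, III and IV pump protons, and complex V (ATP synthase) uses the proton gradient to make ATP. All but complex II also hold subunits encoded by mitochondrial DNA, for which the table has 0 rows, so they were not analysed here. Activated dendritic cells are known to shift from this pathway towards glycolysis.

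Cells were left untreated or were given LPA, a signalling phospholipid with G protein-coupled receptors, over 2 h or 6 h, with 3 libraries in each of these 3 groups. BMDC are grown in culture from bone marrow. The labels give no genotype, strain, age, LPA dose, vehicle or culture time for the untreated cells. They do not say whether the replicates are separate cultures or animals. The p-values therefore speak only for the variation among these 9 libraries, part or all of which may be technical. The series title relates the experiment to type I interferon responses in ovarian cancer.

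Estimated counts totalled 29628817 to 84596899 per library. The dendritic cell marker list was found in full, and 9 of its 10 genes averaged over 1 CPM. Cd209a did not, with 0.0454 CPM in its highest library. The list's summed level was 6868 to 7942 CPM in untreated cells, 7395 to 8163 CPM at 2 h and 6380 to 7013 CPM at 6 h. Macrophage markers were abundant too, all 8 over 1 CPM, and summed to 3156 to 3211 CPM in untreated cells, 3374 to 3505 CPM at 2 h and 3329 to 3511 CPM at 6 h. Csf1r made up most of that sum, and single markers moved apart. At 6 h, 5 of the 8 macrophage markers were called lower, namely Fcgr1, C1qa, Adgre1, C1qc and C1qb (log2 fold changes -1.24, -0.46, -0.42, -0.34 and -0.25), and Mertk and Csf1r were called higher (0.73 and 0.22). Of the 9 dendritic cell markers tested, Batf3, Itgax and H2-Ab1 were called lower at 6 h (-0.78, -0.34 and -0.23) and Ccr7 higher (0.42). At 2 h, 2 macrophage markers were called lower and 1 higher, and 1 dendritic cell marker lower and 2 higher. The 6 neutrophil markers together stayed between 3.19 and 5.26 CPM in every library. Markers of B cells, T cells, NK cells, mast cells and erythroid cells each summed to under 1 CPM in every library, and stromal markers to between 1.2505 and 2.29 CPM. The part of these markers in the results was not tested. In bulk RNA, fewer cells of a type and less of an RNA per cell cannot be told apart.

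At 2 h few of these genes were called, and at 6 h the balance lay on the lower side. After 2 h of LPA, 7 of 88 rose (7.95%) and 2 fell (2.27%) by edgeR's quasi-likelihood test at a Benjamini-Hochberg adjusted p under 0.05. Over all rows tested, 19.3% rose and 19.2% fell, so fewer members were called than rows in general. After 6 h, 14 rose (15.9%) and 31 fell (35.2%), against 26.4% and 25.7% of all rows. In the direct comparison of 6 h with 2 h, 2 were higher (2.27%) and 33 lower (37.5%), against 24.3% and 24.4% of all rows. The median log2 fold change of the 88 was 0.05 at 2 h, -0.08 at 6 h and -0.10 for 6 h against 2 h, and that of all rows lay between -0.01 and 0.01. Both LPA comparisons share the untreated libraries. With the replicate number as a block, 11 instead of 7 members rose at 2 h.

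The changes were small. None of the 88 changed 1.5-fold or more in any comparison, whereas 1361 rows fell and 1185 rose by that much at 6 h. Ndufs8 came nearest, at 0.669-fold. Of the 31 genes that fell at 6 h, 30 were not called at 2 h, and Sdha had fallen at both times. Of the 14 that rose at 6 h, 5 had also risen at 2 h, namely Cox7a2l, Ndufa2, Ndufa4, Ndufb11 and Sdhd. No gene was called in opposite directions, and 40 were called at neither time. At 2 h only 7 members were called higher and 2 lower, so few could be called at both times. Such joint counts were not made over all rows tested.

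**Figure D1:**
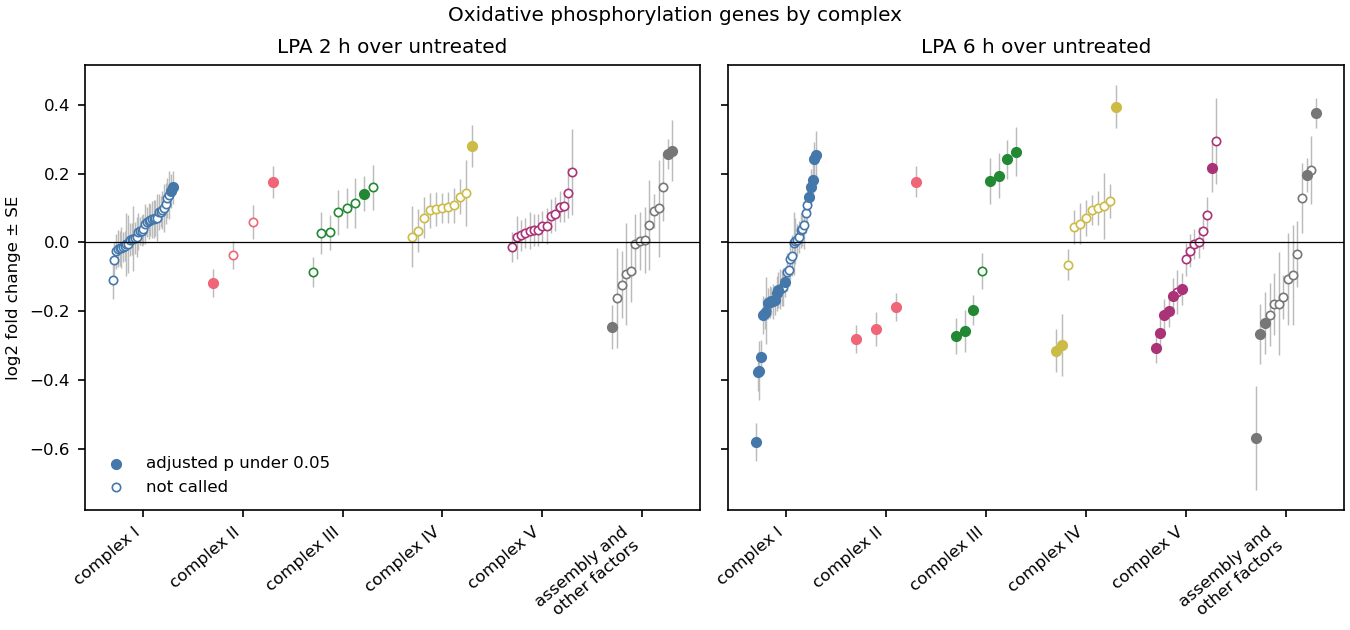
Log2 fold change ± SE of each of the 88 genes after 2 h (left) and 6 h (right) of LPA over untreated cells, 3 libraries a group, sorted within each complex, with assembly and other factors in a column of their own. Filled points passed an adjusted p under 0.05. At 2 h most points lie within 0.2 of 0. At 6 h all 4 complex II subunits and 7 of 8 complex III subunits are filled, on both sides of 0.

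The summed CPM of these subunit genes gives a net RNA level for each complex, and not the amount of the complex. Over the 74 subunits the sum was 6765, 6869 and 6520 CPM in untreated cells, 7161, 6844 and 6809 CPM at 2 h, and 6255, 6396 and 6259 CPM at 6 h. The 6 h libraries all lay below the others. The mean sum at 6 h differed from that of untreated cells by -6.17%. Complex V carried most of this difference, with 2508, 2605 and 2524 CPM at 6 h against 2869, 2897 and 2762 CPM in untreated cells, a difference of -10.5% between the means. For complex II the difference was -8.20%, with 578, 603 and 583 CPM at 6 h against 654, 646 and 622 CPM in untreated cells. For both complexes the 2 groups did not overlap. The differences were -4.09% for complex I, -2.13% for complex III and 0.705% for complex IV. Complexes III and IV overlapped between the groups, and complex I did not. These sums are descriptions with no test, and a few genes with many counts dominate them.

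**Figure D2:**
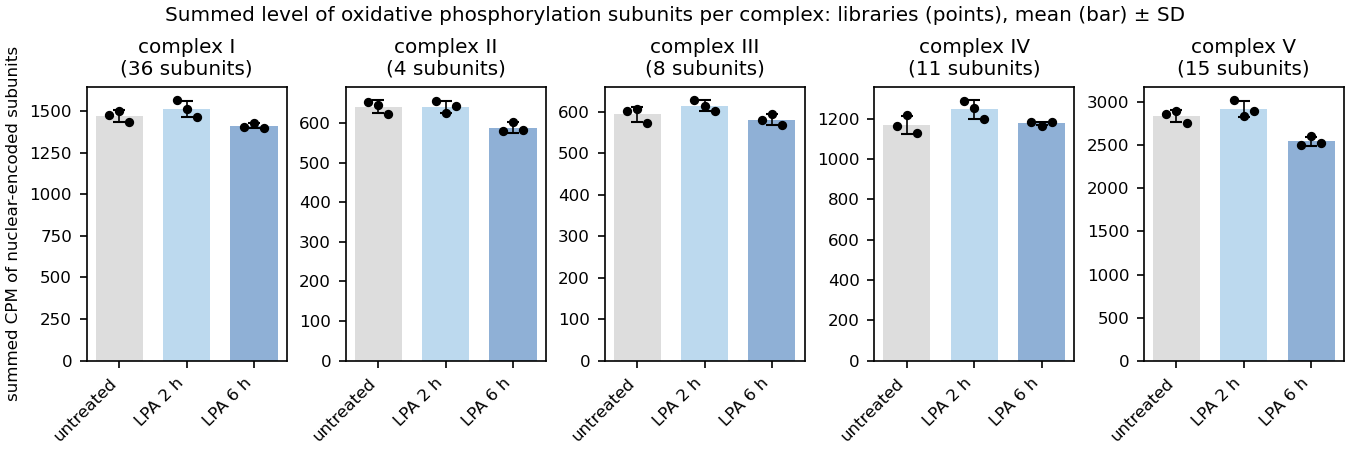
Summed CPM of the nuclear-encoded subunits of each complex in untreated cells and after 2 h and 6 h of LPA. Points are libraries, bars their mean and whiskers the SD (n = 3 each), with each vertical axis starting at 0. Complex V stands at 2843, 2923 and 2546 CPM, and complex IV at 1169, 1247 and 1178 CPM.

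Promoter sequences from RefSeq (GRCm38.p6), from 250 bases before to 50 after the annotated start, were matched to 73 of the 88 genes. Among those not matched were Ndufs1, Ndufa2, Ndufb9, Ndufaf6, Sdhc, Uqcrb, Uqcrc2, Uqcrq, Cox4i1, Cox6c, Atp5a1, Atp5f1, Atp5s and Atp5mpl. NRF1, ETS proteins such as GABP, and YY1 are known regulators of respiratory chain genes. Their core letters were searched on both strands: CGCATGCG for NRF1, CCGGAAG for ETS proteins and AAGATGGC for YY1. The NRF1 letters were in 12.3% of the members' promoters and 1.91% of all 27025. The ETS letters were in 27.4% and 9.12%, and the YY1 letters in 12.3% and 2.88%. Among promoters of members that rose at 6 h (12), fell (23) or were not called (38), the ETS letters were in 33.3%, 17.4% and 31.6%, and the NRF1 letters in 8.33%, 13.0% and 13.2%. The YY1 letters had the same shares as those of NRF1. A match is a description of these letters and not a binding site. The following 4 promoters belong to the members with the largest fall and the largest rise at 6 h, and to the member with the smallest p at 6 h for the NRF1 letters and for the YY1 letters (for the ETS letters this was again Ndufs8). They are written in the direction of transcription, with matches in capitals. Ndufs8 is at chr19:3912725-3913024 on the minus strand with the ETS letters on the opposite strand at base 16 after the start, and Ndufa4 at chr6:11907401-11907700 on the minus strand with no match. Uqcrc1 is at chr9:108936398-108936697 on the plus strand with the NRF1 letters at base 32, and Ndufs4 at chr13:114388045-114388344 on the minus strand with the YY1 letters at base 36.
Ndufs8: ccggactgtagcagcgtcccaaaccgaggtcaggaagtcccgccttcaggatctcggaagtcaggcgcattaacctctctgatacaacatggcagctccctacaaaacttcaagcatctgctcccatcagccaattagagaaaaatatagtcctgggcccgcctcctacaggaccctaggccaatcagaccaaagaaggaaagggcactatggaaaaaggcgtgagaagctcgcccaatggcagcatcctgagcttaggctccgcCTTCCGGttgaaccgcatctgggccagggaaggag
Ndufa4: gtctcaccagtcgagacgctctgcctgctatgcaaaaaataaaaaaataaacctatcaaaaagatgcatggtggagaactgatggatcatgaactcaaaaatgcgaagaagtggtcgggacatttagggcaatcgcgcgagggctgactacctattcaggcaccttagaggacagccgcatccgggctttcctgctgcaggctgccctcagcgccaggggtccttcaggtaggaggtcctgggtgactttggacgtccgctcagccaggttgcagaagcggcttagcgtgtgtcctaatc
Uqcrc1: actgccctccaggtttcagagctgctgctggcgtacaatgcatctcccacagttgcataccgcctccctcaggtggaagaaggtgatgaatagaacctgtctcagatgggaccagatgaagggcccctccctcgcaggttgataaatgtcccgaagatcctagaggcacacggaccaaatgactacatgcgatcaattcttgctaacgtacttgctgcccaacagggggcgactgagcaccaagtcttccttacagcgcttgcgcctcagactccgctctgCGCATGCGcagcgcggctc
Ndufs4: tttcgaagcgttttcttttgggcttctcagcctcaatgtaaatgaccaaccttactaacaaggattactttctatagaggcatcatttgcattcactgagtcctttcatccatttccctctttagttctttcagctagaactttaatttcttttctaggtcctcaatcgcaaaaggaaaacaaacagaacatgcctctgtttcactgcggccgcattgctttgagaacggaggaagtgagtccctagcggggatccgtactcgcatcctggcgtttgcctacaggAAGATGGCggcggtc

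In complex I, 14 of 36 subunits fell at 6 h (38.9%), 5 rose (13.9%) and 17 were not called. Of all rows tested, 25.7% fell and 26.4% rose. The median log2 fold change of the 36 was -0.10. With scaling by total counts only, 11 fell and 5 rose at 6 h. Their median was then -0.06, against 0.05 for all rows. At 2 h, 2 rose (5.56%) and 0 of the 36 fell by edgeR, against 19.3% and 19.2% of all rows. Also 0 fell at an unadjusted p under 0.05, by DESeq2 or by limma-voom. By structural part, called falls at 6 h numbered 4 of 10 subunits (40%) in the NADH-binding N module. They numbered 1 of 5 (20%) in the ubiquinone-facing Q module and 9 of 21 (42.9%) in the membrane arm. The 5 rises were 2 in the N module (20%) and 3 in the membrane arm (14.3%). Of the 7 nuclear-encoded core subunits, the part shared with bacterial complex I, Ndufs8, Ndufs1 and Ndufv2 fell and the other 4 were not called. This grouping of core subunits was made after the values were seen.

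Coordinates of the next gene and of those that follow are GRCm38, from GENCODE M21. Ndufs8 (chr19:3908863-3912774, minus strand), a core subunit of the Q module that carries iron-sulfur clusters, changed most. It measured 26.5, 28.0 and 26.5 CPM in untreated cells, 28.0, 25.2 and 27.0 CPM at 2 h, and 18.003, 18.6 and 17.7 CPM at 6 h. The 6 h libraries lay apart below all others, and those at 2 h overlapped the untreated ones. Ndufs8 fell by 0.58 on the log2 scale at 6 h (SE 0.056, adjusted p = 4.17e-06) and was also lower at 6 h than at 2 h (log2 fold change -0.56, adjusted p = 2.31e-05).

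Ndufs4 (chr13:114287795-114388258, minus strand), an accessory N module subunit whose loss in mice causes a Leigh-like encephalopathy, had 27.7, 29.5 and 28.5 CPM in untreated cells, 29.4, 28.6 and 32.0 CPM at 2 h, and 22.0, 22.7 and 21.4 CPM at 6 h. Its groups at 6 h and in untreated cells did not overlap, and it fell by 0.38 (log2; SE 0.056, adjusted p = 0.000142). Ndufb6, an accessory subunit of the membrane arm, averaged 24.6 ± 0.61 CPM at 6 h and 31.0 ± 0.70 CPM in untreated cells (SD, n = 3 each), a log2 fall of the same order (-0.33, adjusted p = 0.000135).

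Ndufb2, another membrane arm subunit, had 17.3, 13.6 and 17.6 CPM at 6 h against 20.5, 21.03 and 21.2 CPM in untreated cells. It fell by 0.37 (log2; SE 0.085, adjusted p = 0.00292). Replicate 2 at 6 h was its lowest library, and without it the log2 fold change was -0.26 (adjusted p = 0.00622). Ndufb2 shares exon sequence on opposite strands with Braf, at a mean of 55.7 CPM, and Ndufb6 with Smim27, at 2.37 CPM. The libraries do not keep strand, so reads from such overlaps cannot be told apart. Over the whole set, 30 members overlap exons of a gene on the other strand, 19 of them one that averaged at least 1 CPM. Among them the core subunit gene Ndufs1, at a mean of 74.7 CPM, overlaps Eef1b2, at 159 CPM. Ndufb4 is uncertain in another way. It had 6.27, 6.83 and 6.38 CPM at 6 h against 7.69, 8.06 and 6.60 CPM in untreated cells. It was not called at 6 h (log2 fold change -0.20, adjusted p = 0.105). The processed pseudogene Ndufb4c is identical to it over 390 of 390 aligned bases, and the division of reads between them is not known. Ndufb4c, at a mean of 18.5 CPM, was itself called lower at 6 h (-0.18, adjusted p = 0.0157).

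The complex I subunits that rose were accessory ones. Ndufa1, a membrane arm subunit encoded on the X chromosome, had 44.9, 52.5 and 49.6 CPM at 6 h against 38.3, 44.5 and 40.8 CPM in untreated cells, without overlap (log2 fold change 0.25, SE 0.070, adjusted p = 0.00890). Ndufa2, of the N module, had risen at 2 h (0.15, adjusted p = 0.0304) and at 6 h (0.24, adjusted p = 0.00145). It averaged 47.6, 52.8 and 56.3 CPM in untreated cells, at 2 h and at 6 h. Ndufb11 rose by 0.16 at 2 h (adjusted p = 0.0222) and 0.13 at 6 h (adjusted p = 0.0422). The Ndufa2 call at 2 h was lost without untreated replicate 1 or 3 or 2 h replicate 1 or 2 (adjusted p from 0.0723 to 0.122) and with total counts only (0.0540). Ndufb11 lost its 2 h call without untreated replicate 2 or 3 or 2 h replicate 1 (0.0679 to 0.0824), and its 6 h call without untreated replicate 2 or 3 or 6 h replicate 1 or 2 (0.115 to 0.146). The 6 h call of Ndufb11 was also lost with upper quartile scaling (0.0529), DESeq2 (0.0608) and no filter (0.0511). Over all alternatives these adjusted p ran from 0.0104 to 0.122 for Ndufa2, from 0.0105 to 0.0824 for Ndufb11 at 2 h and from 0.0160 to 0.146 at 6 h. Ndufa2 and Ndufb11 overlap Tmco6 (10.2 CPM) and Rbm10 (32.7 CPM) on the opposite strand.

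Complex I assembly factors help build the complex and are not part of it. At 6 h, 3 of 8 were called lower (37.5%), against 25.7% of all rows. By edgeR 0 were called higher, against 26.4% of all rows, and 0 also at an unadjusted p under 0.05, by DESeq2 and by limma-voom. Ndufaf6, which acts early in assembly, had 1.68, 2.07 and 2.01 CPM at 6 h against 2.76, 2.59 and 3.30 CPM in untreated cells, without overlap. It fell by 0.57 (log2; SE 0.15, adjusted p = 0.00706), and its mean level was among the closest to the 1 CPM limit. Ndufaf4, another early factor, was the member that fell most at 2 h, with 11.8, 12.3 and 12.8 CPM at 2 h against 15.4, 14.0 and 14.3 CPM in untreated cells (log2 fold change -0.25, adjusted p = 0.00924).

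Ndufaf7, a mitochondrial methyltransferase, had 5.36, 5.84 and 5.55 CPM in untreated cells, 7.15, 6.04 and 7.05 CPM at 2 h, and 4.90, 4.74 and 4.87 CPM at 6 h. The 3 groups did not overlap: 2 h was highest and 6 h lowest. It rose at 2 h (log2 fold change 0.27, adjusted p = 0.0316) and was lower at 6 h than at 2 h (-0.48, adjusted p = 0.00105), while 6 h against untreated gave -0.21 and an adjusted p of 0.0727. The 2 h rise was lost without untreated replicate 1 or 3 or 2 h replicate 1 or 3 (adjusted p from 0.0800 to 0.117), with DESeq2 (0.0642) and with only the 6 libraries compared (0.0555), and over all alternatives its adjusted p ran from 0.00674 to 0.117.

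All 4 subunits of complex II were called at 6 h, and not in 1 direction. Of these, 3 fell (75%) and 1 rose (25%), against 25.7% and 26.4% of all rows. The catalytic head and 1 of the membrane anchors fell, and the other anchor rose. Sdha (chr13:74322254-74350280, minus strand), the flavoprotein that oxidises succinate, had 286, 278 and 269 CPM in untreated cells, 261, 248 and 258 CPM at 2 h, and 243, 244 and 243 CPM at 6 h. It was lower than in untreated cells at both times, by 0.12 on the log2 scale at 2 h (adjusted p = 0.0403) and 0.19 at 6 h (adjusted p = 0.00221). The 2 h call was lost without untreated replicate 1 or 2 or 2 h replicate 1 or 2 (adjusted p from 0.0527 to 0.148), with no filter (0.119) and with only the 6 libraries compared (0.115), with a range over all alternatives from 0.0122 to 0.148.

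Sdhb (chr4:140961203-140979193, plus strand), the iron-sulfur subunit, had 131, 125 and 118 CPM in untreated cells, 134, 124 and 131 CPM at 2 h, and 103, 107 and 103 CPM at 6 h. It fell by 0.25 at 6 h (log2; SE 0.050, adjusted p = 0.00112), with no overlap at 6 h. Sdhc (chr1:171127165-171150603, minus strand), a membrane anchor that binds heme and ubiquinone, fell by 0.28 (SE 0.041, adjusted p = 0.000117), to 77.1, 81.6 and 81.1 CPM at 6 h against 96.2, 98.7 and 96.6 CPM in untreated cells. The other anchor, Sdhd (chr9:50596357-50603812, minus strand), had 142, 145 and 139 CPM in untreated cells, 163, 160 and 157 CPM at 2 h, and 155, 169 and 156 CPM at 6 h. All LPA libraries lay above all untreated ones. Its log2 fold change was 0.18 at 2 h (adjusted p = 0.00871) and 0.18 at 6 h (adjusted p = 0.00616), with a difference of 0.00 between the times (SE 0.045).

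Of the complex II assembly factors, Sdhaf2, which helps attach the flavin to Sdha, rose to 51.0 ± 0.72 CPM at 6 h against 44.4 ± 2.02 CPM in untreated cells (SD, n = 3 each; log2 fold change 0.20, adjusted p = 0.00492). Sdhaf2 overlaps Cpsf7 (54.3 CPM) on the opposite strand. Sdhaf1, Sdhaf3 and Sdhaf4 were not called in any comparison.

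**Figure D3:**
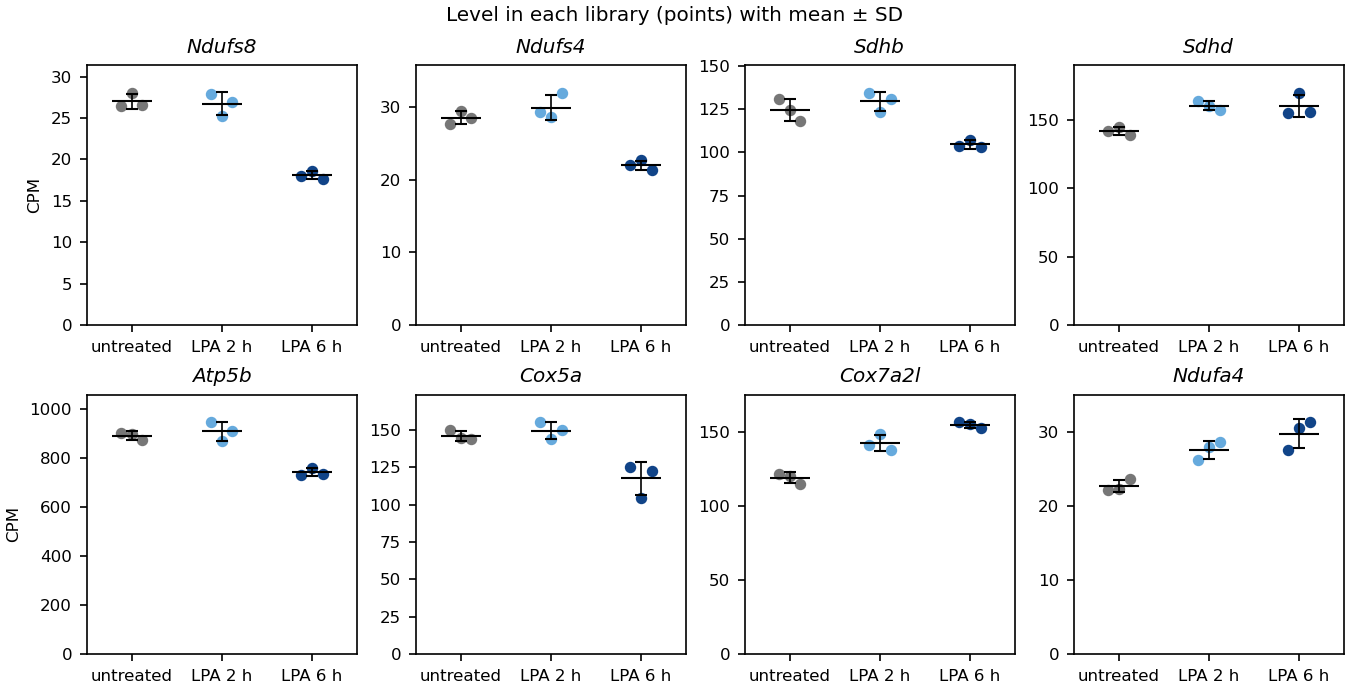
CPM of 8 genes in each library (points) with the group mean ± SD (n = 3), in untreated cells and after 2 h and 6 h of LPA, with each axis starting at 0. Ndufs8, Ndufs4, Sdhb, Atp5b and Cox5a are lower in the 6 h libraries than in all others. Sdhd, Cox7a2l and Ndufa4 stand above untreated cells at both times.

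Complex III moved both ways at 6 h, with 3 of 8 subunits lower (37.5%), 4 higher (50%) and 1 not called. Of all rows, 25.7% were lower and 26.4% higher. The core proteins Uqcrc1 and Uqcrc2 and the small subunit Uqcrb fell at 6 h, and the other small subunits Uqcrh, Uqcr10, Uqcr11 and Uqcrq rose. Uqcrc1 averaged 118 ± 3.85 CPM at 6 h and 135 ± 3.39 CPM in untreated cells (SD, n = 3 each), a log2 fall of 0.20 (adjusted p = 0.00248). Uqcrb had 52.0, 52.2 and 53.0 CPM at 6 h against 67.3, 62.3 and 60.3 CPM in untreated cells, without overlap, and fell by 0.27 (log2; SE 0.051, adjusted p = 0.000756). It overlaps Gm10767 (1.23 CPM) on the opposite strand.

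Uqcrh, the acidic hinge protein that helps cytochrome c to dock, had 101, 108 and 100 CPM at 6 h against 87.0, 91.3 and 83.6 CPM in untreated cells. It rose by 0.24 (log2; SE 0.057, adjusted p = 0.00356), and its groups did not overlap. Uqcr11 rose by 0.26 (SE 0.072, adjusted p = 0.00847), to 44.7, 47.2 and 44.4 CPM at 6 h against 36.2, 41.3 and 35.9 CPM in untreated cells. Uqcrq rose by 0.18 (adjusted p = 0.0390) with overlapping groups, 46.4, 49.8 and 47.9 CPM at 6 h against 40.8, 46.7 and 39.6 CPM in untreated cells. Its call was lost on leaving out any single library but untreated replicate 2 (adjusted p from 0.0583 to 0.160) and with upper quartile scaling (0.0517), with a range over all alternatives from 0.00608 to 0.160. With the replicate block Uqcrq was called at 2 h as well (log2 fold change 0.16, adjusted p = 0.0195, against 0.0759 without it).

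Uqcrfs1, the Rieske iron-sulfur protein, differed between the times. It had 79.1, 79.8 and 78.9 CPM in untreated cells, 88.4, 84.4 and 89.6 CPM at 2 h, and 80.6, 70.4 and 73.8 CPM at 6 h. It was lower at 6 h than at 2 h (log2 fold change -0.22, adjusted p = 0.00342). Its rise at 2 h (0.14, adjusted p = 0.0460) was lost on leaving out any single library but 2 h replicate 2 (adjusted p from 0.0893 to 0.120). It was also lost with RLE (0.0570), upper quartile (0.0506) and total count scaling (0.0695) and by DESeq2 (0.0541), with a range over all alternatives from 0.0245 to 0.120. Cyc1, cytochrome c1 of this complex, carries none of the prefixes. It had 81.6 ± 3.65 CPM at 6 h and 92.1 ± 4.90 CPM in untreated cells (SD, n = 3 each) and fell by 0.17 (log2; adjusted p = 0.0178).

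In complex IV, 8 of 11 subunits were not called at 6 h. The called ones were 2 falls (18.2%) and 1 rise (9.09%), against 25.7% and 26.4% of all rows. Cox5a and Cox5b, which lie on the matrix side, fell, and Ndufa4 rose. At 2 h all 11 had positive log2 fold changes, with a median of 0.10, but only Ndufa4 was called (9.09%, against 19.3% of all rows). Cox5a had 126, 105 and 123 CPM at 6 h against 150, 144 and 144 CPM in untreated cells (log2 fold change -0.31, SE 0.062, adjusted p = 0.00112). Cox5b had 80.7, 61.8 and 79.9 CPM at 6 h against 91.3, 93.7 and 87.8 CPM in untreated cells (-0.30, SE 0.089, adjusted p = 0.0163). Neither overlapped between the groups. Replicate 2 was the lowest 6 h library for both, as for Ndufb2. Without it the log2 fold change was -0.24 for Cox5a (adjusted p = 0.00290) and -0.18 for Cox5b (adjusted p = 0.0214). Without untreated replicate 2 the Cox5b adjusted p was 0.0539, and its range over all alternatives was 0.00285 to 0.0539.

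Ndufa4 (chr6:11900292-11907497, minus strand), first assigned to complex I and now placed in complex IV, had the largest log2 rise of the 88. It had 22.2, 22.3 and 23.7 CPM in untreated cells, 26.2, 27.9 and 28.6 CPM at 2 h, and 27.6, 30.5 and 31.3 CPM at 6 h. All LPA libraries lay above all untreated ones, and 2 h and 6 h overlapped. Its log2 fold change was 0.28 at 2 h (SE 0.061, adjusted p = 0.00306) and 0.39 at 6 h (SE 0.061, adjusted p = 0.000179).

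Cox7a2l (chr17:83501918-83517330, minus strand), also called SCAF1, is known as a factor for joining complexes III and IV into supercomplexes. Whether it does so in these cells was not tested. It is counted here as a factor. It had 122, 120 and 115 CPM in untreated cells, 141, 148 and 138 CPM at 2 h, and 156, 155 and 153 CPM at 6 h. The 3 groups did not overlap, with 6 h highest. Its log2 fold change was 0.26 at 2 h (SE 0.043, adjusted p = 0.000537) and 0.38 at 6 h (SE 0.044, adjusted p = 1.80e-05). The step between the times was smaller, 0.12 (SE 0.043, adjusted p = 0.0384). That step was not called on leaving out any single library but 2 h replicate 2 (adjusted p from 0.0693 to 0.118), with no filter (0.0694) or with only the 6 libraries compared (0.0642), with a range over all alternatives from 0.00887 to 0.118.

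The other complex IV subunits form the shell around the mitochondrially encoded core, and several have tissue isoforms. Cox4i1, the ubiquitous form of the largest nuclear-encoded subunit, averaged 234 ± 5.42 CPM at 6 h and 219 ± 11.2 CPM in untreated cells (SD, n = 3 each; log2 fold change 0.10, adjusted p = 0.106). It overlaps Emc8 (34.3 CPM) on the opposite strand. Cox6a1 and Cox8a gave 0.05 and 0.07 at 6 h (adjusted p = 0.467 and 0.283). Cox6b1 gave 0.12 (adjusted p = 0.0598, and 0.0229 with the replicate block). With the block, Cox8a and Cox6b1 were called at 2 h (log2 fold changes 0.13 and 0.11, adjusted p = 0.0406 and 0.0487, against 0.0614 and 0.110 without it). Cox7a2 was lower at 6 h than at 2 h (-0.17, adjusted p = 0.00864), with 66.7, 70.9 and 66.3 CPM at 6 h against 78.4, 76.2 and 74.2 CPM at 2 h. That call was lost with total counts only (adjusted p = 0.0539), and its range over all alternatives was 0.00352 to 0.0539. Scaling by total counts only gave 4 rises in place of 1 in this complex at 6 h.

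The alternative isoforms lay below the level limit. Cox4i2 and Ndufa4l2, isoforms known to be raised in hypoxia, had 6 and 9 counts over all 9 libraries. Cox6a2 and Cox7a1, heart and muscle forms, averaged 0.881 and 0.739 CPM, and Cox6b2, a testis form, 0.394 CPM. Cox7b2, Cox8b, Cox8c and Atp5g2 had 0 counts. Whether a count of 0 reflects no RNA or the way reads were assigned to annotated transcripts was not tested. Just above the limit stood Sdhaf3, Ndufaf6 and Atp5s, whose group means lay between 1.92 and 2.88 CPM.

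In ATP synthase, 6 of 15 subunits fell at 6 h (40%), 1 rose (6.67%) and 8 were not called. Of all rows, 25.7% fell and 26.4% rose. At 2 h 0 were called by edgeR, DESeq2 or limma-voom, where edgeR called 19.3% of all rows higher and 19.2% lower. By edgeR 2 were higher at 2 h at an unadjusted p under 0.05. The median log2 fold change was 0.05 at 2 h and -0.05 at 6 h. With scaling by total counts only, 4 fell and 2 rose at 6 h. Their median was then -0.01, against 0.05 for all rows. The falls included the most abundant genes. Atp5b (chr10:128083273-128090391, plus strand), the catalytic beta subunit, had the highest level per length of the 88, 1018 CPM per kb in untreated cells. It had 902, 897 and 871 CPM in untreated cells, 944, 870 and 908 CPM at 2 h, and 731, 759 and 734 CPM at 6 h. The 6 h libraries lay below all others. Atp5b fell by 0.26 at 6 h (log2; SE 0.045, adjusted p = 0.000338), and its difference between 6 h and 2 h was -0.29 (adjusted p = 0.000267).

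The other falls were in Atp5a1 (alpha) and Atp5c1 (gamma) of the F1 part, Atp5f1 (b) and Atp5o (OSCP) of the peripheral stalk, and Atp5g3, a c-ring gene. Atp5f1 fell by 0.31 (log2; SE 0.044, adjusted p = 9.15e-05), to 151, 149 and 151 CPM at 6 h against 191, 186 and 182 CPM in untreated cells. It overlaps Wdr77 on the opposite strand. Atp5g1 and Atp5g3 encode the same mature c subunit with different import sequences. Atp5g3 fell by 0.16 at 6 h (adjusted p = 0.0279), with 172, 192 and 178 CPM at 6 h against 202, 208 and 193 CPM in untreated cells. Atp5g1 gave -0.14 (adjusted p = 0.0767, and 0.0364 with the replicate block). The Atp5g3 call was lost without untreated replicate 1 or 2 or 6 h replicate 1 or 3 (adjusted p from 0.0650 to 0.103), with total counts only (0.0728) and with no filter (0.0520), and its range over all alternatives was 0.0100 to 0.103.

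Atp5d, the F1 delta subunit, rose at 6 h, with 126, 120 and 124 CPM against 99.0, 116 and 104 CPM in untreated cells (log2 fold change 0.22, SE 0.072, adjusted p = 0.0235). That call was lost without untreated replicate 1 or 3 or 6 h replicate 1 or 3 (adjusted p from 0.0639 to 0.0979), and over all alternatives it ran from 0.00562 to 0.0979. Atp5d overlaps Cbarp (6.38 CPM) on the opposite strand. Atp5h, a stalk subunit, and Atp5mpl, a small membrane subunit, gave log2 fold changes of 0.10 and 0.10 at 2 h (adjusted p = 0.0879 and 0.0822) and 0.00 and 0.00 at 6 h.

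**Figure D4:**
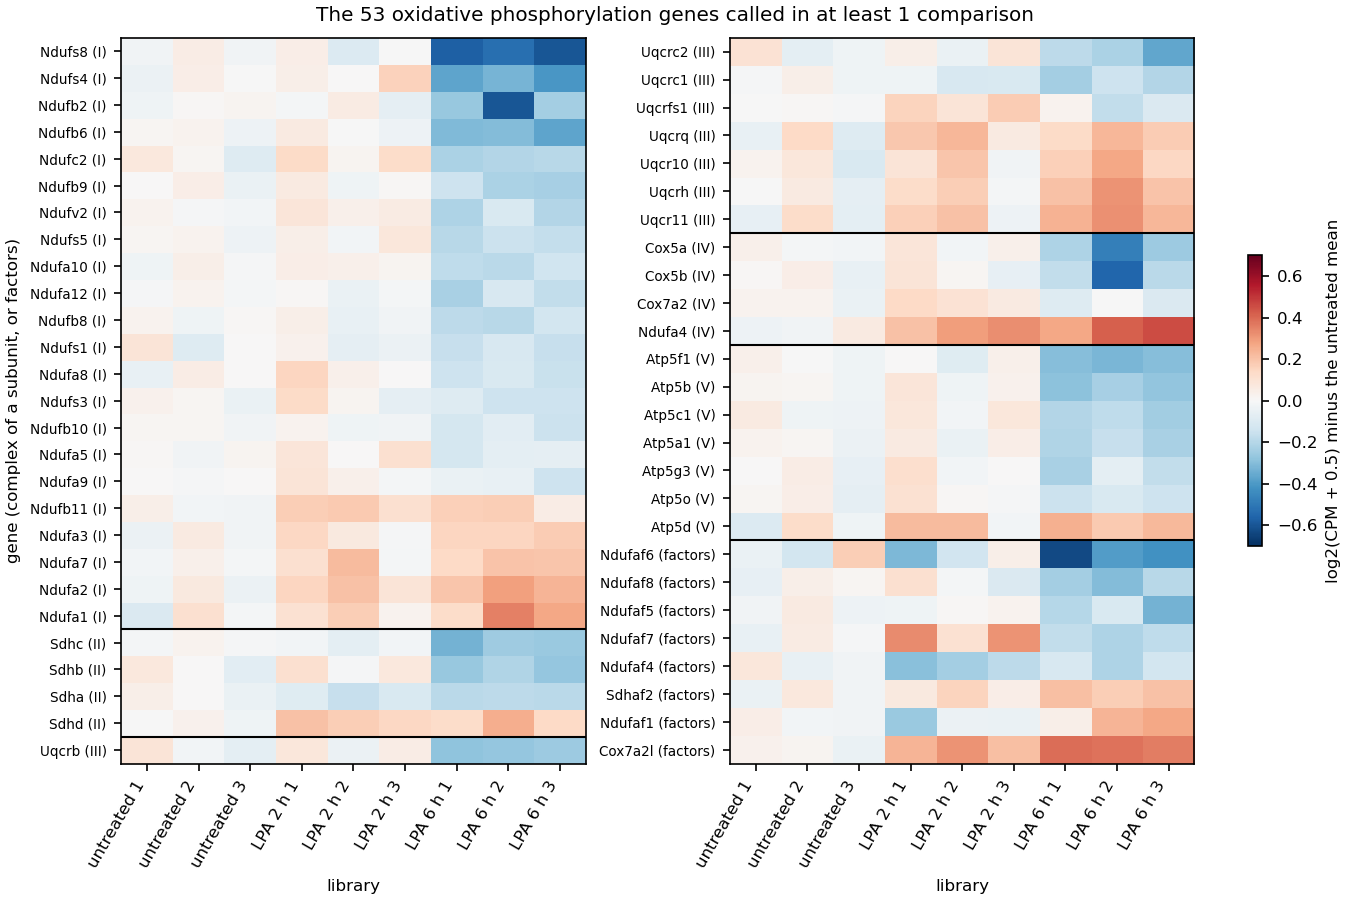
Log2(CPM + 0.5) of each of the 53 genes called in at least 1 of the 3 comparisons, in each of the 9 libraries, minus the mean of the 3 untreated libraries, grouped by complex and sorted by the change at 6 h. Blue is lower and red higher than untreated. Ndufs8 is dark blue in the 3 libraries at 6 h, Cox7a2l and Ndufa4 are red in all 6 LPA libraries, and Ndufb2, Cox5a and Cox5b are darkest in replicate 2 at 6 h.

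The members' change went with the length of their transcripts, which the choice of members did not use. Genes that rose at 6 h had a median of 561 bases for the mean length of their transcripts, genes that fell 873 bases, and genes not called 698 bases. Spearman's rho between length and the log2 fold change at 6 h was -0.36 across the 88 genes, and Pearson's r with log2 length was -0.28. Over 14253 tested rows with a length the same rho was 0.02. Those rows had longer transcripts, with medians of 1826.5 to 2090.5 bases by call at 6 h. Rows of like length were not compared. GC content gave a rho of 0.11 across the members. At 2 h the rho with length was -0.31 across the members and -0.06 over all rows. The points share the same 9 libraries, so these are descriptions without a test.

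**Figure D5:**
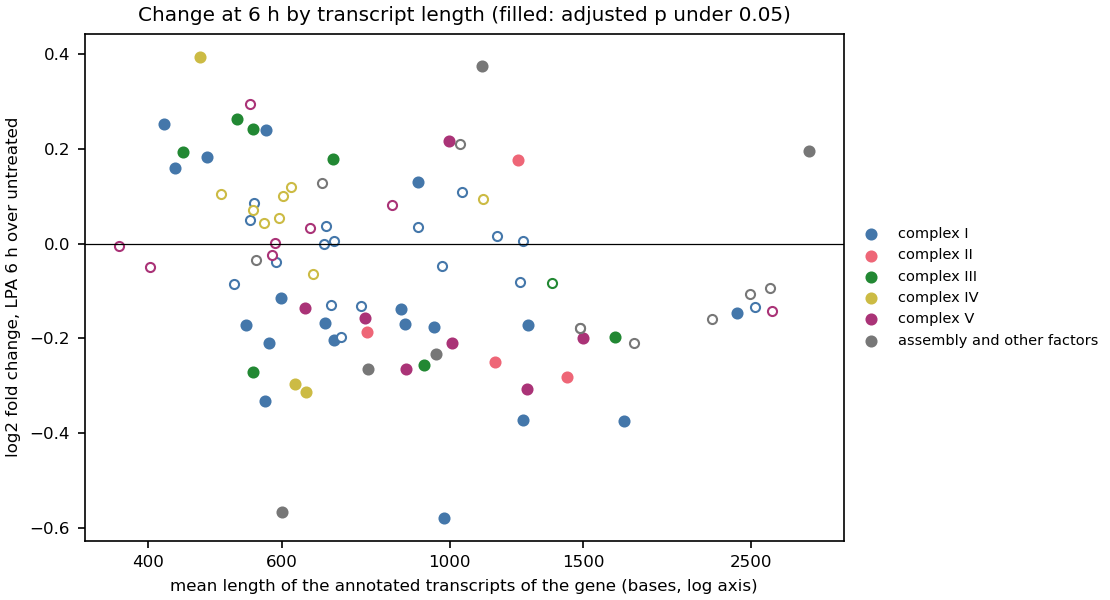
Log2 fold change at 6 h over untreated against the mean length in bases of the annotated transcripts of each of the 88 genes (log axis), colored by complex and filled where the adjusted p was under 0.05. Rising genes lie mostly to the left, with medians of 561 bases for rising and 873 for falling genes. Sdhaf2, Sdhd, Atp5d, Ndufb11 and Cox7a2l are longer genes that rose.

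Related mitochondrial genes were counted in the same way. Over all rows tested, 26.4% rose and 25.7% fell at 6 h. Of 37 respiratory chain assembly and electron carrier genes without the prefixes, 4 rose (10.8%) and 14 fell (37.8%) at 6 h. Cycs, cytochrome c, fell by 0.69 (log2; SE 0.056, adjusted p = 1.19e-06) to 26.7 ± 0.34 CPM at 6 h, against 43.0 ± 1.38 CPM in untreated cells (SD, n = 3 each). Lyrm7, a factor for the Rieske protein, had the largest fall of this list at under 1 CPM in each group mean (-0.69, adjusted p = 0.0377), and Tmem186, a complex I factor, the largest rise (0.50, adjusted p = 0.00172). Of 20 pyruvate dehydrogenase and citric acid cycle genes, 2 rose (10%) and 11 fell (55%). Idh2, the mitochondrial NADP-dependent isocitrate dehydrogenase, fell most, to 31.5 ± 1.82 CPM at 6 h against 45.3 ± 1.91 CPM in untreated cells (adjusted p = 1.19e-05). Mpc1, part of the pyruvate carrier, rose to 163 ± 7.08 CPM at 6 h against 143 ± 5.68 CPM in untreated cells (adjusted p = 0.00422).

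Of 25 import genes 2 rose (8%) and 12 fell (48%) at 6 h, against 26.4% and 25.7% of all rows. The chaperonin gene Hspd1 fell most (log2 fold change -0.52, adjusted p = 1.08e-05) and Timm21 rose most (0.25, adjusted p = 0.0137). Of 78 mitochondrial ribosomal protein genes 8 rose (10.3%) and 26 fell (33.3%), from Mrps28 (-1.25, adjusted p = 2.37e-06) up to Mrps6 (0.82, adjusted p = 0.00143). Cytosolic ribosomal protein genes, measured for comparison, fell in 32 of 82 cases (39.0%) and rose in 2 (2.44%). The called changes ran from Rpl10a (-0.74, adjusted p = 6.10e-06) to Rpl41 (0.18, adjusted p = 0.0204). At 2 h, 18 of these 82 genes had risen (22.0%) and 5 had fallen (6.10%), against 19.3% and 19.2% of all rows. Of the 82, 55 were lower at 6 h than at 2 h (67.1%, against 24.4% of all rows). The counts at 2 h were 7 higher (8.97%) and 10 lower (12.8%) for mitochondrial ribosomal proteins and 1 (4%) and 4 (16%) for import. They were 3 (15%) and 2 (10%) for the citric acid cycle list and 4 (10.8%) and 7 (18.9%) for the assembly and carrier list. Median log2 fold changes at 6 h were -0.04 for the assembly and carrier list, -0.16 for the citric acid cycle list, -0.11 for import, -0.07 for mitochondrial and -0.09 for cytosolic ribosomal proteins, against 0.01 for all rows.

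Regulators of mitochondrial biogenesis were mixed, with 5 of 25 rising (20%) and 8 falling (32%) at 6 h (median -0.01). The shares of all rows were 26.4% and 25.7%. Ppargc1a, the coactivator PGC-1 alpha, averaged 0.0593, 0.642 and 0.655 CPM in untreated cells, at 2 h and at 6 h, and rose at both times (adjusted p = 2.45e-05 and 1.36e-05), although it stayed under 1 CPM. Ppargc1b, its relative, was lower, at 21.5, 14.97 and 18.9 CPM (adjusted p = 6.56e-05 at 2 h and 0.0332 at 6 h). Nrf1, the factor whose letters were searched in the promoters, rose at 6 h to 20.2 ± 0.56 CPM against 16.2 ± 0.076 CPM in untreated cells (SD, n = 3 each; adjusted p = 0.000376). Tfam, which packages and transcribes mitochondrial DNA, gave -0.10 at 6 h (adjusted p = 0.190). Tfb1m fell most of this list (-0.66, adjusted p = 0.000379).

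Hypoxia-linked switch genes went the other way in number, with 8 of 13 rising (61.5%) and 2 falling (15.4%) at 6 h (median 0.23). The shares of all rows were 26.4% and 25.7%. At 2 h, 5 had risen (38.5%) and 0 had fallen by edgeR, against 19.3% and 19.2% of all rows. The list was not sorted by the direction of its genes in hypoxia, so these counts do not measure a hypoxia response. Pdk4, a kinase that switches off pyruvate dehydrogenase, averaged 0.0332, 1.37 and 3.28 CPM in untreated cells, at 2 h and at 6 h (adjusted p = 1.85e-06 at 6 h). Pdk1, a kinase of the same family, had 15.2 ± 1.11 CPM at 6 h and 30.5 ± 3.67 CPM in untreated cells (SD, n = 3 each) and fell by 1.01 (log2; adjusted p = 0.000183).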

How the data were processed

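RNA-seq was carried out on 9 libraries of bone marrow-derived dendritic cells, untreated or after 2 h or 6 h of LPA (3 each). Per the labels' protocols, libraries were non-stranded. The authors deposited a single table for all libraries, holding estimated counts as whole numbers without scaling. Per the submitters' processing notes, the tools were RSEM 1.2.3 and DESeq2 and the build was mm10. RSEM divides reads among transcripts they match. Neither aligner nor annotation release is given in the sources used here. Rows name Ensembl transcripts, which were matched to GENCODE M21 (GRCm38, the assembly mm10 names). Of 38887 rows, 37776 matched 1 gene (98.5% of counts), 176 several (1.4%) and 935 none (0.141%). The row of Atp5o matched several annotated genes of that name.

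The members, lists and naming rule were chosen with earlier results of these data known. Named members were those with the largest called changes (8 a direction against untreated, 4 between the times), the 2 with the smallest p in each complex, and a fixed set of complex II genes and isoforms. Of each list the largest called rise and fall at 6 h are named. Other members are named where a count or a level limit concerns them, and were then chosen after their values were seen.

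Low rows were removed by filterByExpr (at least 10 counts in enough libraries, 15 in total), and the rest scaled with TMM factors and fitted together with edgeR 4.0.16 in R 4.3.3 (glmQLFit, robust; glmQLFTest), with a mean per group. The Benjamini-Hochberg adjustment ran over all 14363 rows tested. SE is the log2 fold change over the square root of F. CPM uses TMM-scaled totals. Chi-square values per degree of freedom between replicates ran from 7.44 to 33.4, far over sampling noise. Libraries of the same number deviated together from the group means, with r of 0.144 to 0.293 for 2 h against untreated, 0.212 to 0.314 for 6 h against untreated and 0.0826 to 0.204 for 6 h against 2 h. The numbers were taken to pair libraries in the first and second of these, from the data only. For 6 h against 2 h the best match was also the library of the same number. The main counts do not use this pairing, and the replicate number entered as a block in an alternative. Other alternatives were RLE, upper quartile and total count scaling, DESeq2 1.42.0, limma-voom (limma 3.58.1), other filters, only the libraries compared, single libraries left out, rows of a gene summed, a limit of 10 CPM and subunits only.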

Additional observations from a re-analysis of the deposited data

Results flagged for a closer look

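The response to LPA differed between 6 h and 2 h for 18 named members, by the direct edgeR test of that difference at an adjusted p under 0.05. The log2 fold change of 6 h against 2 h was -0.56 for Ndufs8, -0.48 for Ndufaf7, -0.44 for Ndufs4, -0.41 for Ndufaf6, -0.37 for Ndufb2 and -0.34 for Ndufb6 among complex I genes. It was -0.31 for Sdhb and -0.25 for Sdhc of complex II, -0.30 for Uqcrb and -0.22 for Uqcrfs1 of complex III, and -0.35 for Cox5a, -0.31 for Cox5b and -0.17 for Cox7a2 of complex IV. In ATP synthase it was -0.29 for Atp5f1, -0.29 for Atp5b and -0.19 for Atp5g3. It was positive for Cox7a2l at 0.12 and Ndufaf1, a complex I assembly factor, at 0.33. For the Ndufaf1 difference the adjusted p was 0.0135, and it was lost without 2 h replicate 1 or 6 h replicate 2 or 3 (0.05003 to 0.0663). That of Ndufaf6 (adjusted p = 0.0404) was lost without any single library but 2 h replicate 1 (0.0574 to 0.138), and with total counts only (0.0686), DESeq2 (0.0652) and limma-voom (0.0573). The Cox7a2 difference was lost with total counts only (0.0539), that of Atp5g3 without 2 h replicate 1 (0.0534), and that of Cox7a2l under 7 of 16 alternatives (up to 0.118).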

How the results depend on the processing

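No named member changed direction in a call. Of the named calls, 4 of 9 at 2 h, 21 of 26 at 6 h and 13 of 18 between the times passed under every alternative run. Most were named for a large change or a small p, so these counts do not speak for the called members not named. For members called higher at 2 h, the count of 7 became 11 with the replicate block and ran from 3 to 12 with single libraries left out. Members called lower at 2 h went from 2 to 1 with no filter, with only the 6 libraries compared, with subunits only, and ran from 1 to 2 with single libraries left out. At 6 h, without single libraries 8 to 16 members were higher and 24 to 30 lower. The 31 called lower at 6 h became 23 with no filter, 25 with total counts only, 34 with the replicate block and 37 with only the 6 libraries compared. Total counts only gave 18 called higher in place of 14. Between the times, total counts only gave 10 falls in place of 15 in complex I and 2 in place of 3 in complex IV. Among assembly and other factors it gave 1 in place of 4, and complexes II, III and V kept theirs. The median at 6 h of -0.0822 was -0.0426 with total counts only, -0.0487 at a mean CPM of 10 or more and -0.0571 for subunits only. For 6 h against 2 h, members called higher numbered 9 with total counts only, 6 with the replicate block, 1 with no filter, 1 with only the 6 libraries compared, 1 at a mean CPM of 10 or more, 0 with subunits only and 0 to 6 without single libraries. The median of -0.0981 was -0.0454 with total counts only and -0.129 to -0.0854 without single libraries. With the block, 4, 5 and 9 further members were called for 2 h, for 6 h and for the step between them, and none was lost. The cause of these shifts was not tested. Total counts only moved the median of all rows at 6 h to 0.05.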
